A study of Danio rerio with 12 samples.

Results

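The genes wnk4b, foxj2, pygo2, wipf2b, lrtm2a, zcchc14, syt9a, mtf1, calm3b and FCF1 are described here: 10 of the 18985 genes that have a probe set of their own on the array. Their transcripts stood on opposite sides of the control in zebrafish larvae that had received 5-HT (serotonin), depending on the age of the larvae. They were chosen by name from measured values of the same arrays, namely 5-HT minus control at 4 and at 2 days post fertilisation (dpf), so that difference is given below as a description, without a test. The 10 genes hold 14 single-gene probe sets, 6 genes with 1 and 4 genes with 2, and all 14 passed the filter on low values. Where a gene had 2 probe sets, the one with the higher mean over the 12 arrays stands for it.

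The larvae (Danio rerio, wild type of the AB line) were measured whole on 12 Affymetrix Zebrafish Gene 1.0 ST arrays, each with the RNA of a pool of 30 to 40 larvae. The 6 groups were larvae injected as zygotes with 5-HT, with reserpine or, as controls, with the vehicle, collected at 4 dpf or at 2 dpf, with 2 biological replicates each. Proteinase K had been used to remove the chorion in every group, and all injection solutions held KCl and the tracer TRITC-dextran. The controls received DMSO and ethanol, the solvents of reserpine, at an amount the labels call relevant, and the injected doses were not given in the sources used here. In RNA of whole larvae, fewer cells of a type and less RNA per cell cannot be told apart. One label of the second 4 dpf reserpine array names 2-day larvae while its other labels give 4 days. The mean of 11 exocrine pancreas markers on it was 12.55, against 12.65 to 12.94 on the other 4 dpf arrays and 6.48 to 8.34 on the 2 dpf arrays, and it was kept at 4 dpf.

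Serotonin is a monoamine made from tryptophan that acts as a transmitter in neurons, and it is also present in early embryos before neurons form. Reserpine blocks the vesicular monoamine transporter, which loads serotonin, dopamine and noradrenaline into vesicles. The 10 genes belong to no single pathway: they encode a kinase of ion transport and a calcium sensor, gene regulators, proteins of RNA and ribosome processing, and proteins of the cytoskeleton, the membrane and vesicle release.

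In 8 of the 10 genes the 5-HT arrays lay below the control arrays at 4 dpf and above them at 2 dpf, and in calm3b and FCF1 they lay above at 4 dpf and below at 2 dpf. In all 10 the replicates of 5-HT and control did not overlap at either age. This held for 18.9% of the 18407 genes tested, and nothing is read from the count of 10, because the genes were chosen on that contrast. The 5-HT by age difference, that is 5-HT minus control at 4 dpf minus the same at 2 dpf, ranged in size between 1.28 and 2.83 on the log2 scale. Its median size was 2.285 over the 10 genes and 0.26 over all genes tested.

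**Figure D1:**
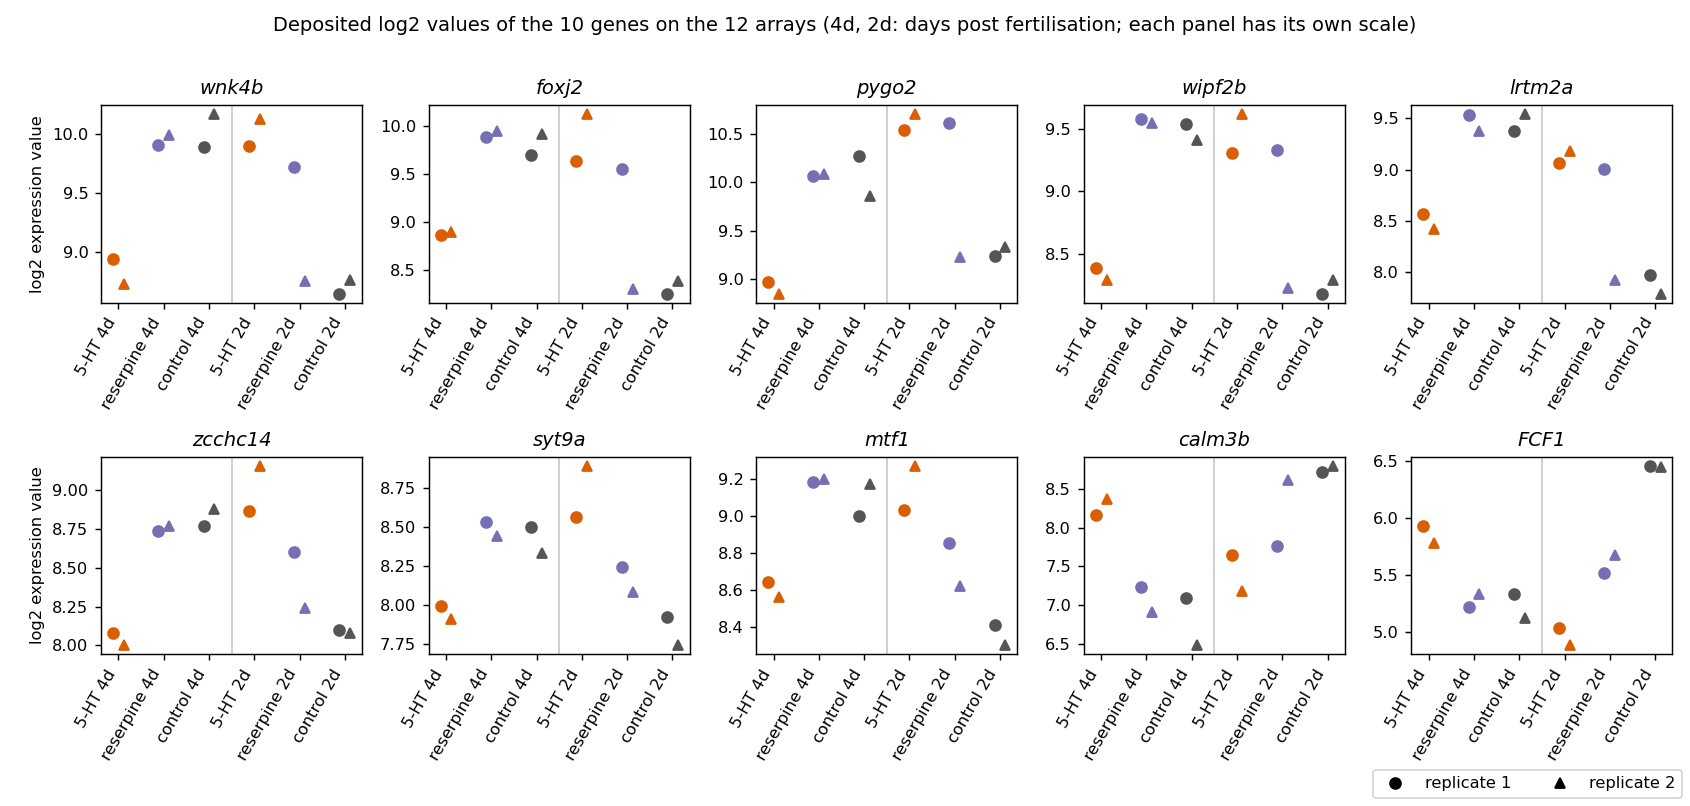
Deposited log2 expression value (vertical axis) of each of the 10 genes on the 12 arrays, by group at 4 and 2 dpf (circles replicate 1, triangles replicate 2; each panel has its own scale). In wnk4b the 4 dpf 5-HT arrays sit at 8.94 and 8.73, below the 4 dpf controls, and the 2 dpf 5-HT arrays at 9.90 and 10.13, above the 2 dpf controls, and calm3b and FCF1 show the mirror image.

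The kinase gene wnk4b encodes a WNK kinase, a family that acts through the kinases SPAK and OSR1 on cation-chloride cotransporters. At 4 dpf wnk4b had log2 values of 8.94 and 8.73 on the 5-HT arrays, 9.91 and 9.99 on the reserpine arrays and 9.89 and 10.17 on the control arrays. At 2 dpf it had 9.90 and 10.13 on the 5-HT arrays, 9.72 and 8.76 on the reserpine arrays and 8.65 and 8.77 on the control arrays. The low arrays were thus those of 5-HT at 4 dpf and of the control and the second reserpine replicate at 2 dpf. The 5-HT arrays were 2.29-fold lower than the controls at 4 dpf (log2 -1.195, SE 0.27) and 2.47-fold higher at 2 dpf (log2 1.305, SE 0.27), a difference by age of -2.50 (SE 0.38). The other wnk4b probe set gave -0.605 at 4 dpf and 1.135 at 2 dpf, a difference by age of -1.74. Each SE, here and below, rests on a spread pooled over all 6 groups, not on the 5-HT and control arrays alone. For wnk4b the SD was 0.68 in 2 dpf reserpine larvae, beside 0.08 to 0.20 in the 5-HT and control groups.

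The gene calm3b encodes calmodulin, the calcium sensor that several vertebrate genes encode as the same protein. At 4 dpf calm3b had 8.16 and 8.37 on the 5-HT arrays, 7.23 and 6.91 on the reserpine arrays and 7.09 and 6.48 on the control arrays. Its 2 dpf values were 7.64 and 7.18 on the 5-HT arrays, 7.76 and 8.62 on the reserpine arrays and 8.72 and 8.80 on the control arrays. Here the 5-HT arrays were the high ones at 4 dpf and the low ones at 2 dpf. Against the controls, the 5-HT arrays were 2.79-fold higher at 4 dpf (log2 1.48, SE 0.30) and 2.55-fold lower at 2 dpf (log2 -1.35, SE 0.30), and the difference by age, 2.83 (SE 0.43), was the widest of the 10 genes. A second calm3b probe set gave 1.18 at 4 dpf and -1.19 at 2 dpf, at low values. Its 4 dpf control values, 4.39 and 4.29, lay below the 25th percentiles of those arrays, 4.56 and 4.58. A further 6 probe sets list calm3b together with other genes and were not used, since transcripts of near-identical calmodulin genes can share probes.

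Of the gene regulators, foxj2 encodes a forkhead transcription factor. At 4 dpf foxj2 had 8.86 and 8.89 on the 5-HT arrays, 9.88 and 9.94 on the reserpine arrays and 9.70 and 9.91 on the control arrays. The 2 dpf larvae had 9.63 and 10.12 on the 5-HT arrays, 9.55 and 8.30 on the reserpine arrays and 8.25 and 8.38 on the control arrays. The 2 dpf reserpine replicates lay 1.25 apart, one beside each of the other groups. Set against control, 5-HT arrays were 1.905-fold lower at 4 dpf (log2 -0.93, SE 0.33) and 2.95-fold higher at 2 dpf (log2 1.56, SE 0.33), the largest positive difference among these genes at that age.

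The PHD-finger protein encoded by pygo2 is a coactivator of Wnt signalling that meets beta-catenin through BCL9. At 4 dpf pygo2 had 8.97 and 8.85 on the 5-HT arrays, 10.06 and 10.08 on the reserpine arrays and 10.27 and 9.86 on the control arrays. At 2 dpf its values were 10.54 and 10.70 on the 5-HT arrays, 10.61 and 9.23 on the reserpine arrays and 9.24 and 9.33 on the control arrays. The 5-HT larvae held the lowest group mean of this gene at 4 dpf and the highest at 2 dpf. The 5-HT arrays were 2.23-fold lower than the controls at 4 dpf (log2 -1.155, SE 0.35) and 2.52-fold higher at 2 dpf (log2 1.335, SE 0.35). Its other probe set gave -0.535 at 4 dpf and 0.725 at 2 dpf, and a further 2 probe sets that pygo2 shares with other genes were not used.

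The metal-responsive transcription factor encoded by mtf1 switches on metallothionein genes in the presence of zinc. At 4 dpf mtf1 had 8.64 and 8.56 on the 5-HT arrays, 9.18 and 9.20 on the reserpine arrays and 9.0 and 9.17 on the control arrays. At 2 dpf it had 9.03 and 9.27 on the 5-HT arrays, 8.85 and 8.62 on the reserpine arrays and 8.41 and 8.30 on the control arrays. Both 2 dpf reserpine arrays lay between the 5-HT and the control arrays. Its differences were the smallest of the 10 by age: 1.40-fold lower in 5-HT larvae at 4 dpf (log2 -0.485, SE 0.15) and 1.74-fold higher at 2 dpf (log2 0.795, SE 0.15).

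Among the genes of RNA processing, zcchc14 encodes a CCHC zinc-finger protein that in human cells works with TENT4 poly(A) polymerases. At 4 dpf zcchc14 had 8.08 and 8.0 on the 5-HT arrays, 8.74 and 8.77 on the reserpine arrays and 8.77 and 8.88 on the control arrays. Its 2 dpf values were 8.87 and 9.16 on the 5-HT arrays, 8.60 and 8.24 on the reserpine arrays and 8.10 and 8.08 on the control arrays. The 5-HT arrays were the lowest of their age at 4 dpf and the highest at 2 dpf. Against the controls, the 5-HT arrays were 1.72-fold lower at 4 dpf (log2 -0.785, SE 0.16) and 1.90-fold higher at 2 dpf (log2 0.925, SE 0.16). The other zcchc14 probe set stayed between 5.06 and 5.38 on all 12 arrays, with a difference by age of -0.02. It was the one probe set of the 14 that did not show opposite differences without overlap of 5-HT and control at the 2 ages.

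FCF1 is named for a component of the small subunit processome, which in yeast cleaves the ribosomal RNA precursor. At 4 dpf FCF1 had 5.93 and 5.78 on the 5-HT arrays, 5.22 and 5.33 on the reserpine arrays and 5.33 and 5.12 on the control arrays. The 2 dpf larvae had 5.03 and 4.88 on the 5-HT arrays, 5.52 and 5.67 on the reserpine arrays and 6.46 and 6.45 on the control arrays. These are low values: the 25th percentiles of the arrays lay between 4.54 and 4.67 and their medians between 6.44 and 6.56. Set against control, 5-HT arrays were 1.55-fold higher at 4 dpf (log2 0.63, SE 0.14) and 2.83-fold lower at 2 dpf (log2 -1.50, SE 0.14). A separate probe set written fcf1, which unlike FCF1 carries a gene identifier, gave 0.085 at 4 dpf and -0.15 at 2 dpf, so the values printed for FCF1 belong to that probe set alone.

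The cytoskeletal gene wipf2b encodes a WASP-interacting protein, of a family that binds WASP proteins, the activators of actin branching by the Arp2/3 complex. At 4 dpf wipf2b had 8.39 and 8.29 on the 5-HT arrays, 9.58 and 9.55 on the reserpine arrays and 9.54 and 9.41 on the control arrays. At 2 dpf its values were 9.31 and 9.62 on the 5-HT arrays, 9.33 and 8.23 on the reserpine arrays and 8.18 and 8.29 on the control arrays. The first 2 dpf reserpine array fell inside the range of the 5-HT arrays and the second inside that of the controls. The 5-HT arrays were 2.20-fold lower than the controls at 4 dpf (log2 -1.135, SE 0.29) and 2.35-fold higher at 2 dpf (log2 1.23, SE 0.29).

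The gene lrtm2a encodes a membrane protein with leucine-rich repeats. At 4 dpf lrtm2a had 8.57 and 8.42 on the 5-HT arrays, 9.53 and 9.38 on the reserpine arrays and 9.38 and 9.54 on the control arrays. At 2 dpf it had 9.06 and 9.18 on the 5-HT arrays, 9.01 and 7.92 on the reserpine arrays and 7.97 and 7.79 on the control arrays. Of the 8 genes that were higher with 5-HT at 2 dpf, lrtm2a had the largest difference between 4 dpf and 2 dpf controls. Against the controls, the 5-HT arrays were 1.952-fold lower at 4 dpf (log2 -0.965, SE 0.29) and 2.36-fold higher at 2 dpf (log2 1.24, SE 0.29).

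Synaptotagmins, of which syt9a encodes one, are vesicle proteins, several of which sense calcium in vesicle release. At 4 dpf syt9a had 7.99 and 7.91 on the 5-HT arrays, 8.53 and 8.44 on the reserpine arrays and 8.50 and 8.33 on the control arrays. Its 2 dpf values were 8.56 and 8.89 on the 5-HT arrays, 8.24 and 8.08 on the reserpine arrays and 7.92 and 7.74 on the control arrays. The 2 dpf reserpine arrays lay between the other groups and nearer the control. Set against control, 5-HT arrays were 1.38-fold lower at 4 dpf (log2 -0.465, SE 0.16) and 1.86-fold higher at 2 dpf (log2 0.895, SE 0.16), the smallest difference at 4 dpf of the 10 genes.

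**Figure D2:**
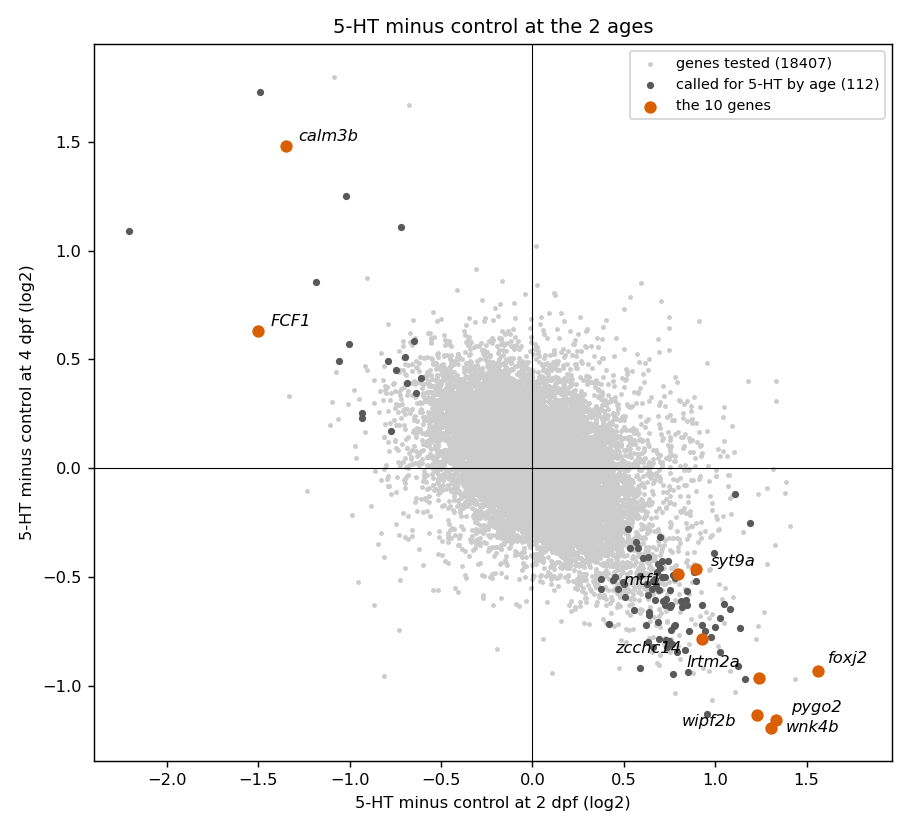
5-HT minus control at 4 dpf (vertical axis, log2) against the same difference at 2 dpf (horizontal axis, log2) for the 18407 genes tested, with the 10 genes named and the 112 genes that passed the limma test of 5-HT by age in dark grey. The 10 genes lie at the upper left (calm3b at 1.48 and -1.35, and FCF1) and the lower right (foxj2 at -0.93 and 1.56, and 7 others), and were chosen for that.

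Across all features, 1253 of 58127 (2.16%) passed the limma test of 5-HT by age at an adjusted p under 0.05, 824 higher and 429 lower, among them 112 of 18407 genes (0.608%). Of these 112 genes 19 were higher and 93 lower. Features without a gene name made up 87.9% of the calls and 64.6% of the features tested. Within one age the same fit called 0 genes for 5-HT minus control at 4 dpf (0%, and 0 features, with 4943 features at an unadjusted p under 0.05). At 2 dpf it called 1 gene (0.00543%, and 4 features, with 8647 at an unadjusted p under 0.05). The 5-HT by age count depended on single arrays: without either 4 dpf 5-HT array, the second 4 dpf control array, the first 2 dpf control array or the second 2 dpf 5-HT array, 0 features passed, and without the first 4 dpf control array 3 did. Leaving out the first 2 dpf 5-HT array left 325 calls and leaving out the second 2 dpf control array 236, while 2458 features passed without either 2 dpf reserpine array. Without either of these reserpine arrays, whose distance from each other then no longer enters the shared spread, 372 features passed for 5-HT minus control at 4 dpf and 1215 at 2 dpf. Without the second 2 dpf control array, 208 features passed at 2 dpf.

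The order of the 6 group means was alike in the 8 genes that were higher with 5-HT at 2 dpf. The reserpine and control larvae of 4 dpf and the 5-HT larvae of 2 dpf held the upper 3 places. The mean of the 2 dpf reserpine larvae lay below them, and the 4 dpf 5-HT and 2 dpf control larvae were mostly lowest. That reserpine mean joins replicates that stood apart, in pygo2 at 10.61 and 9.23, so its place is not that of each array. In wnk4b, foxj2, zcchc14 and mtf1 the upper 3 groups overlapped in their neighbouring ranges. In wnk4b they averaged 9.95 ± 0.06 in 4 dpf reserpine larvae, 10.03 ± 0.20 in 4 dpf controls and 10.015 ± 0.16 in 2 dpf 5-HT larvae (SD, n = 2 each). The 4 dpf 5-HT larvae lay apart from the 2 dpf controls in foxj2, pygo2, lrtm2a and mtf1, and overlapped them in wnk4b, wipf2b, zcchc14 and syt9a. In pygo2 the 4 dpf 5-HT larvae averaged 8.91 ± 0.08, below the 2 dpf controls at 9.285 ± 0.06 (SD, n = 2 each). In calm3b and FCF1 the 2 dpf controls were highest and the 4 dpf 5-HT larvae next, apart from them by 0.495 in calm3b and 0.60 in FCF1.

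The change with age in the controls, which the choice of these genes also used, was upward in the same 8 genes and downward in calm3b and FCF1. The 4 dpf minus 2 dpf difference in controls was 1.32 for wnk4b, 1.49 for foxj2, 0.78 for pygo2, 1.24 for wipf2b and 1.58 for lrtm2a on the log2 scale. It was 0.735 for zcchc14, 0.585 for syt9a and 0.73 for mtf1, with -1.975 for calm3b and -1.23 for FCF1. In 5-HT larvae each of the 10 genes differed with age in the other direction, between -0.55 for mtf1 and -1.71 for pygo2, with 0.855 for calm3b and 0.90 for FCF1. These values describe the same arrays that chose the genes, and the 5-HT by age difference is the 5-HT age change minus the control age change.

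**Figure D3:**
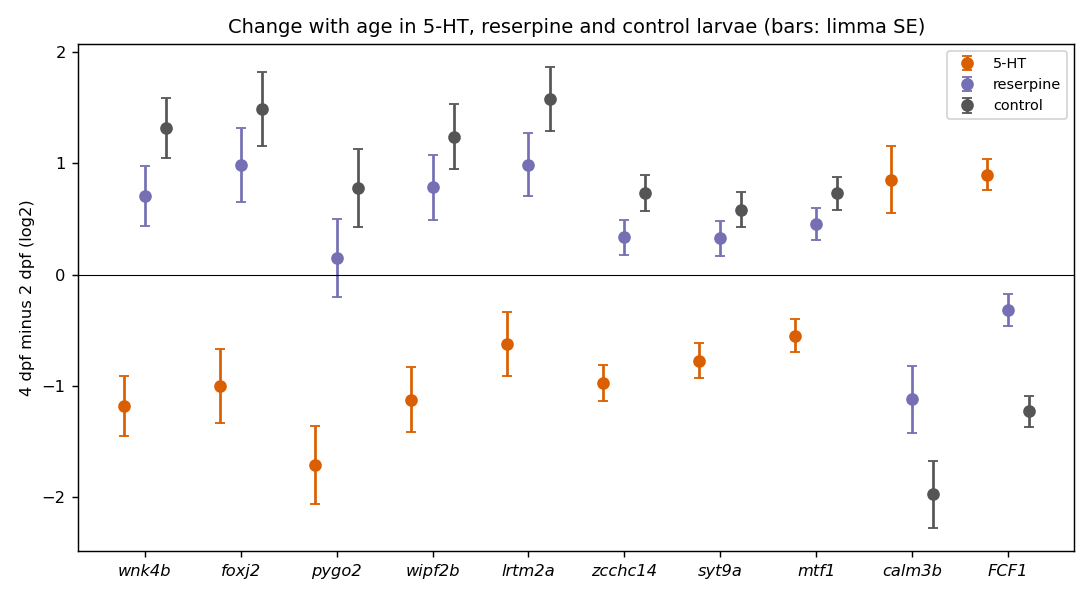
4 dpf minus 2 dpf (vertical axis, log2) of the 10 genes in 5-HT, reserpine and control larvae, with bars for the limma standard error. The reserpine points have the sign of the control points in all 10 genes and lie closer to 0 in each, and the 5-HT points have the other sign. The reserpine points rest on 2 dpf replicates that stood apart. Without the first of these, the reserpine change was larger than the control change in foxj2, pygo2 and wipf2b, though in no other gene. Without the second, that of pygo2 turned to -0.54.

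The change with age on the reserpine arrays was not independent of the choice of these genes. At 4 dpf the reserpine arrays lay close to the control arrays that chose them. At 2 dpf the reserpine replicates stood apart, by a median size of 0.91 over the 10 genes and 0.2 over all genes, which enters the standard error. The values of the limma fit over all features are therefore given as descriptions. The 6 groups shared 1 estimate of the spread in that fit, to which all 12 arrays contributed. None of the 10 genes passed for reserpine at 4 dpf against 2 dpf (adjusted p 0.0571 to 0.843, limma), where 11.1% of the 18407 genes did. At an unadjusted p under 0.05, 7 of the 10 lay under the threshold, beside 32% of all genes. The reserpine arrays of the 2 ages did not overlap in 9 of the 10 genes, all but pygo2, beside 58.7% of all genes. In 10 of 10 genes the change had the sign of the control change, as it did in 84.7% of all genes. This holds for the probe set that stands for each gene. On the second probe sets of pygo2 (-0.16, control 0.165) and zcchc14 (-0.105, control 0.02) the signs differed, and on those of wnk4b and calm3b they did not. Since the control change was part of the choice, the adjusted p-values, the absence of calls and the counts of 7, 9 and 10 genes are descriptions. Nothing is read from them.

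The smallest adjusted p was that of calm3b, at -1.12 (SE 0.30, adjusted p = 0.0571, limma), followed by lrtm2a at 0.99 (SE 0.29, adjusted p = 0.0714). The reserpine age difference was 0.455 for mtf1 (adjusted p = 0.101), 0.985 for foxj2 (adjusted p = 0.114), 0.785 for wipf2b (adjusted p = 0.143) and 0.71 for wnk4b (adjusted p = 0.151). It was -0.32 for FCF1 (adjusted p = 0.214), 0.335 for zcchc14 (adjusted p = 0.25), 0.325 for syt9a (adjusted p = 0.252) and 0.15 for pygo2 (adjusted p = 0.843). These values, given as descriptions, rested on the 2 dpf reserpine arrays. Without the first of them the difference was 1.19 for wnk4b, 1.61 for foxj2, 1.335 for wipf2b, 1.535 for lrtm2a and -1.55 for calm3b. In these genes the 2 dpf reserpine array then left lay near the 2 dpf control mean. The 4 dpf reserpine arrays lay close to the 4 dpf controls. The difference thus comes near the control age change that chose the genes, and no call is read from it. Without the second, pygo2 turned to -0.54. A lone array left in a group is assumed there to vary like the others.

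At 4 dpf the reserpine arrays lay close to the control arrays in all 10 genes. Reserpine minus control was at most 0.285 in size, in calm3b, with a median size of 0.075 over the 10 genes and 0.07 over all genes. Being set against the same controls that chose the genes, it is not tested. The reserpine values were -0.08 for wnk4b, 0.105 for foxj2, 0.005 for pygo2 and 0.09 for wipf2b, beside 5-HT values of -1.195, -0.93, -1.155 and -1.135 for the same genes at that age.

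At 2 dpf the 2 reserpine replicates stood apart from each other in these genes. On a scale where 0% is the mean of the controls and 100% the mean of the 5-HT arrays, the first replicate lay at 99.3% for pygo2 and the second at -4.12%. For lrtm2a the first replicate lay at 91.1% and the second at 3.23%. For wipf2b these positions were 89.0% and -0.41%, for foxj2 79.2% and -0.96%, and for wnk4b 77.4% and 3.83%. The first replicate thus had the level of the 5-HT larvae, or nearly so, and the second that of the controls. The positions were less far apart in calm3b (74.1% and 10.4%), zcchc14 (55.1% and 16.2%), mtf1 (62.3% and 33.3%), syt9a (45.8% and 27.9%) and FCF1 (62.3% and 52.3%).

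The first replicate was nearer the 5-HT mean and the second nearer the control mean in 8 of the 10 genes, all but syt9a and FCF1, beside 40.8% of the genes tested. The difference of the first from the second replicate had the sign of 5-HT minus control at 2 dpf in 10 of 10 genes, beside 63.1% of the genes tested. The median size of that difference was 0.91 over the 10 genes and 0.20 over all genes. Positions and signs are measured against the 5-HT and control arrays of 2 dpf that chose the 10 genes, whose gap between these groups is wide by choice, so both counts are descriptions and nothing is read from them. Because their means hide this split, reserpine minus control at 2 dpf is given only as values: 0.53 for wnk4b, 0.61 for foxj2, 0.635 for pygo2, -0.57 for calm3b and -0.86 for FCF1.

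**Figure D4:**
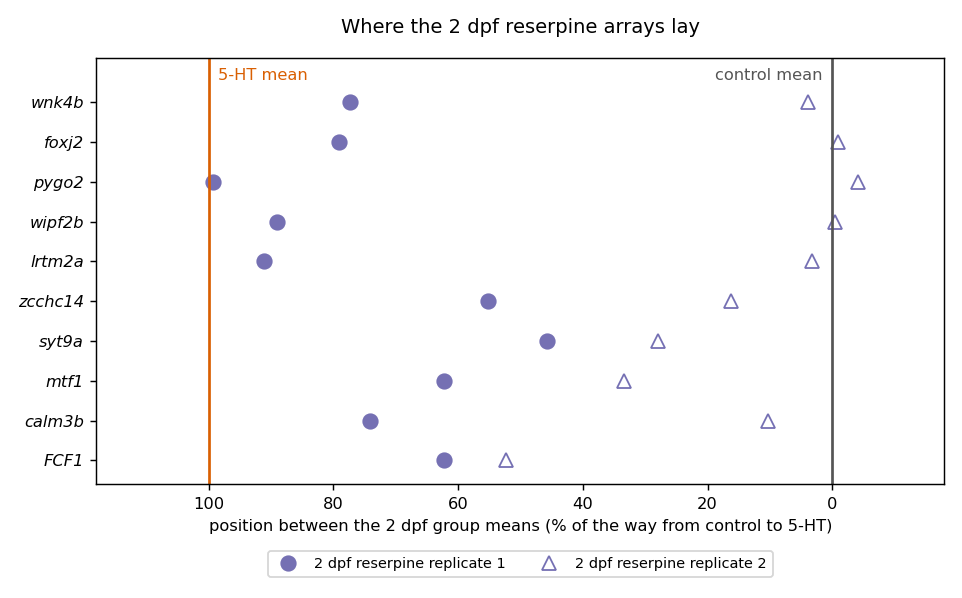
Position of the 2 reserpine arrays of 2 dpf (horizontal axis, percent of the way from the control mean at 0 to the 5-HT mean at 100) for each of the 10 genes. Replicate 1 lies at 99.3 for pygo2 and 91.1 for lrtm2a, while replicate 2 lies at -4.12 and 3.23, and the replicates come closest in FCF1.

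A principal component analysis of 58104 features, without any probe set of the 10 genes, gave a second component that held 17.1% of the variance. Its scores were 44.3 and 50.9 on the 4 dpf 5-HT arrays, -15.0 and -34.6 on the 4 dpf reserpine arrays and -11.8 and -22.9 on the 4 dpf control arrays. At 2 dpf they were -37.3 and -45.3 on the 5-HT arrays, -38.5 and 32.8 on the reserpine arrays and 38.9 and 38.4 on the control arrays. The scores thus opposed 5-HT and control at both ages and in opposite directions, and set the 2 dpf reserpine replicates apart, although their labels are the same, in features other than the 10 genes. What separates these replicates, and its part in the 5-HT differences of the 10 genes, was not tested.

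**Figure D5:**
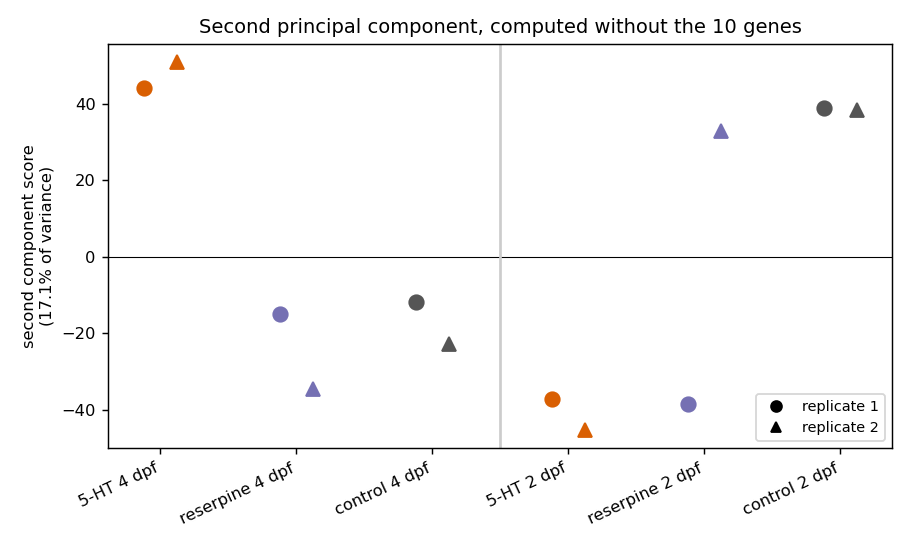
Score of each array on the second principal component (vertical axis, arbitrary units, 17.1% of the variance), by group at 4 and 2 dpf, computed without the 10 genes. At 2 dpf the reserpine replicates lie at -38.5, beside the 5-HT arrays, and at 32.8, beside the control arrays.

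Marker levels of some tissues differed between the same arrays. The mean log2 value of 11 of 12 listed fast muscle markers at 2 dpf was 12.15 and 12.18 on the 5-HT arrays, 12.24 and 12.41 on the reserpine arrays and 12.41 and 12.41 on the control arrays. That of 8 of 9 listed epidermal markers was 11.63 and 11.54 on the 5-HT arrays, 11.57 and 11.35 on the reserpine arrays and 11.36 and 11.37 on the control arrays. The mean of 11 of 12 listed neuronal markers at 2 dpf was 10.25 and 10.25 on the 5-HT arrays, 10.17 and 10.43 on the reserpine arrays and 10.50 and 10.40 on the control arrays. The muscle and neuronal means were thus lower and the epidermal means higher on the 2 dpf 5-HT arrays and the first 2 dpf reserpine array. Single markers of a list differed in sign. At 2 dpf 5-HT minus control was -0.59 for the muscle gene actn3b and 0.10 for pvalb1. It was -0.45 for the neuronal gene sncb and 0.405 for stmn2b, and 0.62 for the epidermal gene tp63 and -0.06 for epcam. At 4 dpf the muscle means were 12.31 and 12.33 on the 5-HT arrays, 12.35 and 12.31 on the reserpine arrays and 12.33 and 12.26 on the control arrays, and these overlapped. The epidermal means at 4 dpf were 11.26 and 11.18 on the 5-HT arrays, 11.46 and 11.41 on the reserpine arrays and 11.28 and 11.44 on the control arrays. Neuronal means at 4 dpf lay between 10.12 and 10.36 on all 6 arrays, with the groups overlapping. The mean of 8 of 11 photoreceptor markers did not follow that pattern: at 2 dpf it was 9.52 and 9.69 on the 5-HT arrays, 8.43 and 9.66 on the reserpine arrays and 9.08 and 9.54 on the control arrays, lowest on the first reserpine array. The mean of the 11 pancreas markers at 2 dpf was lower on each first replicate than on the second, with 7.005 and 8.34 on the 5-HT arrays, 6.70 and 7.81 on the reserpine arrays and 6.48 and 7.88 on the control arrays. The mean of 7 of 8 red blood cell markers at 2 dpf was 9.53 on the first control array and 9.997 to 10.08 on the other arrays. The mean of 9 of 12 liver markers was 9.41 on the first 2 dpf control array and 10.44 to 10.79 on the other 2 dpf arrays. The 16 measured clock genes differed by age and by replicate number more than by injection. At 4 dpf their mean was 10.01 to 10.09 on the first replicates and 8.93 to 9.09 on the second, and at 2 dpf 8.95 to 9.02 and 8.32 to 8.50. The part of these cell types and of the clock genes in the values of the 10 genes was not tested.

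Lists of 262 gene symbols were drawn up by the pathway or gene family of each member, and 215 of them were measured. Not every listed gene is known to work with its member. For 5-HT by age 2 of the 215 passed (0.930%), against 0.608% of all genes tested, and in both single-age comparisons of 5-HT with control 0 passed (limma, adjusted p under 0.05). The median 5-HT by age difference was 0.085 over the 215 genes and 0.035 over all genes. For reserpine at 4 dpf against 2 dpf, 14 passed higher and 8 lower, 22 of the 215 in all, against 11.1% of all genes.

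Of the canonical Wnt genes, with which pygo2 works, 24 of 27 were measured and 1 passed lower for 5-HT by age, tcf7l1a, a TCF transcription factor that mainly represses Wnt targets. At 4 dpf tcf7l1a had 10.36 and 10.35 on the 5-HT arrays, 10.91 and 10.90 on the reserpine arrays and 10.81 and 10.96 on the control arrays. The 2 dpf larvae had 10.91 and 11 on the 5-HT arrays, 10.83 and 10.35 on the reserpine arrays and 10.25 and 10.41 on the control arrays. The difference by age was -1.155 (SE 0.24, adjusted p = 0.0436, limma), with the 2 dpf reserpine replicates again on either side. Its adjusted p ranged between 0.0118 and 0.180 over 19 alternatives and was above the threshold in 12, 10 of them on leaving out 1 array. The scaffold dvl2 gave -0.75 (adjusted p = 0.0917) and the beta-catenin gene ctnnb2 -0.71 (adjusted p = 0.132). The list's median was -0.31, and at 4 dpf against 2 dpf in reserpine larvae 0 of its genes passed.

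Of the small subunit processome genes, with which FCF1 is grouped, 36 of 43 were measured and 1 passed higher for 5-HT by age, wdr46, a scaffold protein of that complex. At 4 dpf wdr46 had 6.95 and 6.88 on the 5-HT arrays, 6.93 and 6.75 on the reserpine arrays and 6.79 and 6.70 on the control arrays. At 2 dpf its values were 6.53 and 6.33 on the 5-HT arrays, 6.88 and 6.99 on the reserpine arrays and 7.18 and 7.23 on the control arrays. The difference by age was 0.945 (SE 0.19, adjusted p = 0.0420, limma), most of it from 2 dpf, where 5-HT minus control was -0.775. Its adjusted p ranged between 0.0334 and 0.179 over 19 alternatives and was above the threshold in 12, 10 of them on leaving out 1 array. The list's median was 0.27, and aatf at 0.915 (adjusted p = 0.233) and utp3 at 0.95 (adjusted p = 0.246) did not pass.

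Among 20 of 27 measured genes of WNK kinases and cation-chloride cotransport, 0 passed for 5-HT by age and the median was 0.105. For reserpine with age 4 of them passed higher and 2 lower (30%, beside 11.1% of all genes). The sister gene wnk4a gave -0.465 at 4 dpf and 0.97 at 2 dpf, a difference by age of -1.435 (adjusted p = 0.0935, limma). The cotransporter gene slc12a10.1 gave -0.92 (adjusted p = 0.106) and rose by 0.81 with age in reserpine larvae (adjusted p = 0.0300), and wnk3 gave -1.54 (adjusted p = 0.170). Of 26 of 29 measured genes of the WIP, WASP and Arp2/3 list 0 passed for 5-HT by age, with a median of -0.08. For reserpine with age 1 of them passed higher and 1 lower (7.69%). The sister gene wipf2a gave -1.27 (adjusted p = 0.0508), wipf1b -1.96 (adjusted p = 0.0872) and the WASP gene wasb -1.065 (adjusted p = 0.102).

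The remaining lists held 0 calls for 5-HT by age. All 3 other FOXJ genes were measured, with a median of 0.085: foxj1a, a regulator of motile cilia, gave 0.52 (adjusted p = 0.329, limma), foxj3 -0.325 (adjusted p = 0.499) and foxj1b 0.085 (adjusted p = 0.906). In the leucine-rich repeat list, 26 of 31 measured, the median was -0.17, with flrt2 at -0.875 (adjusted p = 0.0567), slitrk2 at -0.935 (adjusted p = 0.0766) and robo1, a receptor of axon guidance, at -0.82 (adjusted p = 0.169). In the ZCCHC14 and TENT4 list, 3 of 5 listed symbols, which include older gene names, were measured. Its median was -0.575, with zcchc2 at -0.835 (adjusted p = 0.0982), tent4b at -0.575 (adjusted p = 0.254) and tent4a at -0.545 (adjusted p = 0.342). For reserpine with age 2 leucine-rich repeat genes passed higher and 1 lower (11.5%, beside 11.1% of all genes).

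Of 29 of 37 measured synaptotagmin and vesicle fusion genes the median by age was 0.355, and 2 passed higher for reserpine with age (6.9%, beside 11.1% of all genes). There unc13a, a vesicle priming factor, gave -0.585 (adjusted p = 0.166, limma), syt11a -0.565 (adjusted p = 0.200) and syt6b 0.755 (adjusted p = 0.213). Of 22 of 27 measured zinc handling genes the median was -0.08, and 1 passed higher and 4 lower for reserpine with age (22.7%). The zinc transporter genes slc39a6 gave -0.69 (adjusted p = 0.170), SLC39A14 0.83 (adjusted p = 0.353) and slc30a10 -0.475 (adjusted p = 0.384). Of 26 of 33 measured calmodulin, calmodulin kinase and calcineurin genes the median was 0.32, and 4 passed higher for reserpine with age (15.4%). In that list camk2b1 gave -0.83 (adjusted p = 0.146), the calcineurin subunit gene ppp3r1a 1.06 (adjusted p = 0.163) and camk2b2 0.64 (adjusted p = 0.370).

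Across the 12 arrays the 8 genes higher with 5-HT at 2 dpf correlated with each other at a Pearson r of 0.71 to 0.98 over their 28 pairs, and calm3b with FCF1 at 0.83. The points share the same 12 libraries and the genes share the rule that chose them, so these are descriptions. Among all other named genes tested, the one most like wnk4b was tcf7l1a (r = 0.989), the one most like foxj2 was wipf2a (r = 0.994), and those most like wipf2b and pygo2 were usp8 (r = 0.993) and cbll1 (r = 0.989). For lrtm2a it was cyld3 (r = 0.992), for zcchc14 nelfa (r = 0.968), for mtf1 gucy1a2 (r = 0.970) and for syt9a kdm4ab (r = 0.946). For calm3b it was ppp1r14bb (r = 0.969), and for FCF1 casq1a (r = 0.930) ahead of wdr46 (r = 0.898). Of the 10 genes 9 were found in the RefSeq gene table of the assembly GRCz12tu, and 0 pairs of them were neighbours on a chromosome.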

How the data were processed

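Total RNA of pooled whole larvae was measured on 12 arrays, 2 per group. The authors deposited log2 expression values, with 2 decimals, for 73244 features. Their software and normalization were not given in the sources used here. All columns were used (0 left out). Features were named from the platform annotation: 20491 carried 1 gene symbol, 842 several and 51911 none. Probe sets with several symbols named no gene. The test took the 58127 features that reached the 25th percentile of the array on at least 2 arrays. limma 3.58.1 in R 4.3.3 (lmFit, eBayes, two-sided) was fitted to 6 group means over all arrays, with 6 residual and 3.53 prior degrees of freedom, and p-values were adjusted by Benjamini-Hochberg over all features tested, with a threshold of 0.05. Differences between 2 groups had a median standard error of 0.20, and the number of arrays limits the precision. Counts of genes used 1 feature per symbol, that of the highest mean.

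The 10 genes, the pathway and marker lists and the tests were chosen with earlier results of these data known. All 10 genes were named, with up to 3 genes per pathway list by the smallest unadjusted p for 5-HT by age, and the genes most correlated with each. Arrays of a group are biological replicates per the labels, and p-values measure the spread between these pools of larvae. Alternatives were other normalizations, filters, priors and sets of arrays, a replicate block and leaving out each array. Those for 5-HT minus control within an age were chosen after seeing the data. The fit was run on simulated data with independent noise of the same spread for every feature and no replicate effect. That setting is simpler than these arrays.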

Additional observations from a re-analysis of the deposited data

Results flagged for a closer look

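The 5-HT minus control difference pointed in opposite directions at the 2 ages, with every replicate on its side, on the probe set that stands for each of the 10 genes. The other zcchc14 probe set was flat, with a difference by age of -0.02. The separate fcf1 probe set gave 0.085 at 4 dpf and -0.15 at 2 dpf. The 5-HT by age difference was -2.50 for wnk4b, -2.49 for foxj2, -2.49 for pygo2, -2.365 for wipf2b and -2.205 for lrtm2a on the log2 scale. It was -1.71 for zcchc14, -1.36 for syt9a, -1.28 for mtf1, 2.83 for calm3b and 2.13 for FCF1. The difference was not tested for these genes, because they were chosen on it.

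Of the genes on the pathway lists, tcf7l1a (-1.155, adjusted p = 0.0436) and wdr46 (0.945, adjusted p = 0.0420) differed in 5-HT minus control between the ages in limma's test of the interaction. Leaving out any 1 of the 5-HT, control or 4 dpf reserpine arrays ended both calls.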

How the results depend on the processing

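The opposite 5-HT differences of the 10 genes are fixed by their choice, so that they recur under the alternatives says nothing of their stability. FCF1 was not tested where features had to reach the median mean, which left 9 genes. Members called for reserpine with age (0 as reported) were 1 with quantile normalization, 2 under the filter at the median mean, called stricter here, 1 with a robust trended prior and 0 to 5 when single arrays were left out. There calm3b gave -1.18 (adjusted p = 0.0488) after quantile normalization and passed at 0.0339 and 0.0477 under the other 2 settings. The gene lrtm2a passed at 0.0438 under the stricter filter. Over all features, the same comparison had 4353 calls with quantile normalization, 4810 under the stricter filter and 4759 with the robust trended prior. Each of these totals was above the 4038 reported, as was that with the replicate block (5451), where 0 members passed. The most members passed without the first 2 dpf reserpine array, so the member counts did not follow the totals. The control age change was part of the choice, so these counts are descriptions and nothing is read from them. Without the second 2 dpf reserpine array pygo2 reversed to -0.54, and without the first it was 0.84. Deviations of same-numbered arrays correlated between groups at -0.07 to 0.33, over 0.1 in 12 of 15 pairs of groups, and the third principal component was positive on every first replicate (12.01 to 42.99) and negative on every second (-29.96 to -19.44). The arrays thus share an effect of replicate number, but as not every correlation passed 0.1 the numbers were not taken as pairs. The reported fit therefore leaves this effect in its spread. With the replicate block, 0 members passed, 5-HT by age had 1614 features, 2 pathway genes, and 1 feature for 5-HT at 2 dpf. Reserpine with age had 4038 features, 831 with only its own arrays, 5451 with the replicate block and 1279 to 3938 without single arrays (1279 without the first 4 dpf and 2341 without the second 2 dpf reserpine array). 5-HT by age (1253) had 2270 with only its groups' arrays and 0 to 2458 without single arrays. Pathway genes called (2) were 0 with quantile normalization, 1 with median centring, 1 with no filter, 4 under the stricter filter, 4 with the robust trended prior, 8 with only the groups' arrays and 0 to 10 without single arrays (10 without either 2 dpf reserpine array, 1 without the second 2 dpf control array, 0 without any other). 5-HT at 2 dpf (4 features) had 8 with quantile normalization, 13 with median centring, 13 under the stricter filter, 274 with only its arrays and 0 to 1215 without single arrays. At 4 dpf (0) it had 0 to 372. The cause of these shifts was not tested. Fewer arrays give a smaller residual sample by construction.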
